A study of Homo sapiens with 12 samples.

Results

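HK2 cells with short hairpin RNA (shRNA) knockdown of FLCN were compared after long-term and short-term culture. HK2 is an immortalised human kidney proximal tubule line. The 3 long-term FLCN knockdown libraries came from cells grown for more than 120 passages, and the 3 short-term FLCN knockdown libraries came from cells below 30 passages. These limits are from the labels, and the study's methods give a lower limit for long-term culture, counted from clonal selection. These are 6 of the 12 samples of the series. The other 6 carried a nontarget control shRNA and were harvested at the same limits, 3 short-term and 3 long-term. All cells were kept in antibiotic-containing DMEM supplemented with fetal bovine serum at 10%, with no other treatment. RNA was polyA-selected. The labels call the replicates of each group biological, and the study's methods describe stable knockdown clones. The clone behind each library was not given, so effects of passage, of clone and of selection during culture cannot be told apart, and p-values measure the spread between these libraries. The study asked what prolonged reduction of FLCN does in kidney cells, and the question here was which transcripts differed after many passages when FLCN was lowered throughout.

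FLCN encodes folliculin, the tumour suppressor lost in Birt-Hogg-Dubé syndrome. With its partners FNIP1 and FNIP2 it acts at the lysosome as a GTPase-activating protein for RagC and RagD, which lets mTORC1 phosphorylate the transcription factors TFEB and TFE3 and keeps them out of the nucleus. When FLCN is lost, these factors enter the nucleus and drive lysosomal and metabolic genes. Continued passage of a cell line also selects for faster growing cells and can fix chromosome gains and losses.

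Total gene counts ran from 5825779 to 8991051 in the 6 knockdown libraries. FLCN itself stood at 5.95, 6.58 and 5.66 CPM (counts per 1e6 counts) in the short-term knockdown libraries and at 6.7, 6.31 and 7.97 in the long-term ones, against means of 15.3 and 11.3 CPM in short-term and long-term nontarget cells. The knockdown groups overlapped for FLCN (log2 fold change 0.20 ± 0.19, adjusted p = 0.501). In both knockdown groups replicate 3 stood apart from replicates 1 and 2, with a chi-square per degree of freedom of 10.3 to 12.6 for pairs that held it and 3.48 to 3.87 for the pair that did not. Leaving out replicate 3 of both groups gave 1244 calls in place of 1225, of which 1082 were shared. Of 38 proximal tubule markers, 15 passed the filter on low counts, among them DPP4 and PDZK1, while HNF4A, LRP2 and SLC22A6 had no counts in any library of the 4 groups. Leukocyte markers were too low to test (0 of 10, summed at 2.70 to 3.78 CPM in short-term and 1.18 to 1.82 in long-term knockdown libraries, with PTPRC, CD3E and MS4A1 at 0 counts). Endothelial markers summed at 4.66 to 7.72 CPM in short-term and 0.497 to 0.59 in long-term libraries, with KDR, FLT1 and EMCN at 0. The 2 of 10 tested, ERG and ESAM, both fell, against 15.2% of all genes tested. Of 10 fibroblast markers 5 were tested, and 3 of these fell and none rose, against 15.2% and 11.5% of all genes tested. Fibroblast marker sums of 54.4 to 60.6 fell to 29.9 to 37.8 CPM, with DPT at 0. The part of these markers in the results below was not tested. In RNA from whole cultures, fewer cells of a type and less RNA per cell cannot be told apart.

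Promoters of the 2 genes with the largest fitted rises and the 2 with the largest fitted falls are shown because these genes went from near silence to ready detection, or the reverse. Each runs from 250 bases before to 50 bases after the RefSeq transcript start (GRCh38.p14), is written 5′ to 3′ on the gene's strand, and has CG dinucleotides in capitals. MLANA lies at chr9:5890639-5890938, plus strand, EPHA3 at chr3:89107371-89107670, plus strand, KCNJ15 at chr21:38272258-38272557, plus strand and ACTC1 at chr15:34795500-34795799, minus strand.
MLANA: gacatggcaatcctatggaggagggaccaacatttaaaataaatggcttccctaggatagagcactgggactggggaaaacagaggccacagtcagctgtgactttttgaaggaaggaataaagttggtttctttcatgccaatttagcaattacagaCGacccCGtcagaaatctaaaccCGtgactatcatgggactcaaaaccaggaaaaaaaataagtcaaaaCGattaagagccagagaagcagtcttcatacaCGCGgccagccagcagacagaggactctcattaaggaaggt
EPHA3: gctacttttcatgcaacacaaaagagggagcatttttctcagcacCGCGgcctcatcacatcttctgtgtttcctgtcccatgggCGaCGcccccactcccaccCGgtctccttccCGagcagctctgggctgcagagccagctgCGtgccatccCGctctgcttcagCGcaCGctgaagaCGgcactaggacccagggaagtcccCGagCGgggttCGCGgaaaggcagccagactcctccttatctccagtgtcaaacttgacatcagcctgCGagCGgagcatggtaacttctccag
KCNJ15: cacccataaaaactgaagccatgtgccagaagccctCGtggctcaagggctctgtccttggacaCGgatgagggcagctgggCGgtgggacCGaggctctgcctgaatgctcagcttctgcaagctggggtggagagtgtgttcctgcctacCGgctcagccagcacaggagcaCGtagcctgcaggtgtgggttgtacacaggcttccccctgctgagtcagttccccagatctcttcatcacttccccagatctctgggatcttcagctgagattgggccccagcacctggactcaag
ACTC1: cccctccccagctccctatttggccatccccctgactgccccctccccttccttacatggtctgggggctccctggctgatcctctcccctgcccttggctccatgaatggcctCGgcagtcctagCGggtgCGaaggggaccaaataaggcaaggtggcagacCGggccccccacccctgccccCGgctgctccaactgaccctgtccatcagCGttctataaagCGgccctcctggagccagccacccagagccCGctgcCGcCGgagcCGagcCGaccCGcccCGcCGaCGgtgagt
The MLANA and KCNJ15 windows each held 6 CG dinucleotides, EPHA3 held 17 and ACTC1 held 16. Over all 27195 RefSeq promoters of this length the median was 14 (quartiles 3 and 28), and 95.9% held at least 1. The E-box CACGTG, which reads the same on both strands and is bound by TFEB and TFE3 among other factors, was in none of the 4 windows and in 7.45% of all promoters. The promoters of called genes as a set were not compared, because only 69.02% of the genes called higher and 67.9% of those called lower had a promoter in the table, below the 80% needed.

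After long culture of FLCN knockdown cells more genes were lower than higher, and large falls were more frequent than large rises. Of 13959 genes tested, 297 were called higher in long-term cells (2.13% of genes tested) and 928 lower (6.65%), a call needing a fold change of at least 2 and an adjusted p under 0.05 by the quasi-likelihood test of edgeR. This made 3.13 falls for each rise. The imbalance widened with the size of the change. At 4-fold or more, 71 calls were higher and 399 lower, and at 10-fold or more 12 were higher and 178 lower. By the adjusted p alone, whatever the fold, 1601 genes were higher (11.5% of genes tested) and 2118 lower (15.2%), and such genes are said below to have passed the test. CPM ranges of the 2 groups did not overlap for 1200 of the 1225 called genes, against 38.1% of all genes tested. Over the whole set of genes tested the median log2 fold change was 0.01.

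Falls outnumbered rises at every level of expression. Genes tested were divided into 3 equal classes by mean CPM over all 12 libraries. In the lowest class (up to 10.3 CPM) 203 genes were called higher and 597 lower, in the middle class 64 and 230, and in the highest class 30 and 101. Long intergenic noncoding genes were called lower in 30 of 267 cases (11.2%) and higher in 10, antisense genes in 41 and 21 of 954, and protein-coding genes in 834 and 252 of 12121. The plot of change against level shows the same imbalance along its whole width.

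**Figure D1:**
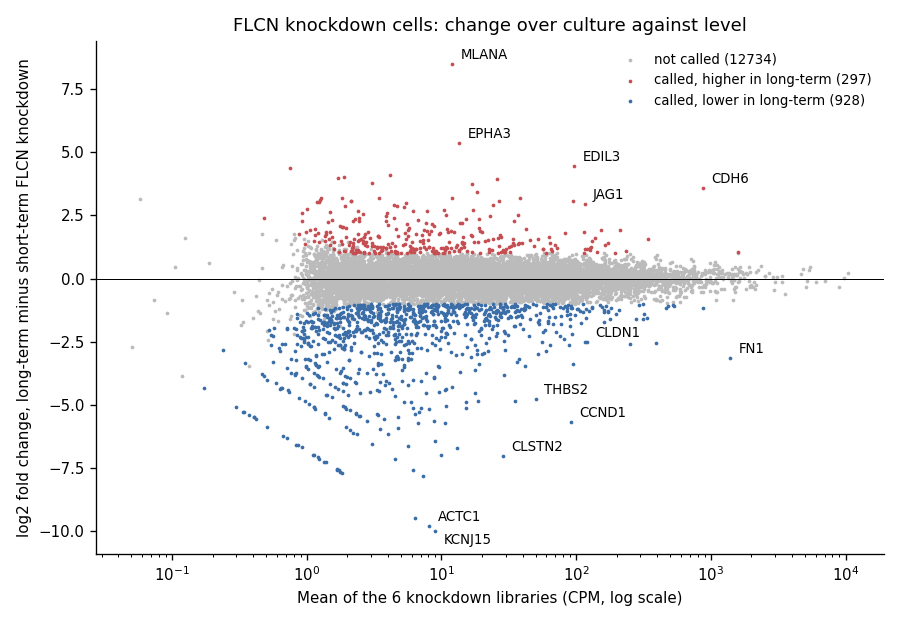
Each point is a gene tested. The x axis gives the mean of the 6 knockdown libraries in CPM on a log scale and the y axis the fitted log2 fold change of long-term against short-term FLCN knockdown. Red marks the 297 genes called higher and blue the 928 called lower. KCNJ15 and ACTC1, with no counts in long-term cells, lie lowest, where fitted values depend on the prior count, and MLANA lies highest.

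The 12 largest rises, among genes called with no overlap between groups and a mean of at least 50 counts over the 6 knockdown libraries, were led by MLANA, a melanosomal antigen of melanocytes (chromosome 9, 5890802 to 5910606 in GRCh38, from GENCODE 29). It was at 0, 0 and 0.177 CPM in short-term and 28.3, 24.2 and 19.5 CPM in long-term knockdown libraries, 1 count against 525. The ratio of its counts per total was 503, with an exact 95% interval of 89.8 to 19900 that covers counting error only (adjusted p = 7.98e-10). It was nearly silent in every short-term library and plainly present in each long-term one. EPHA3, an ephrin receptor tyrosine kinase (chromosome 3, 89107524 to 89482134), was at 0.759, 0.731 and 0.354 CPM and then at 28.3, 31.8 and 19.7 CPM (log2 fold change 5.35 ± 0.29, adjusted p = 6.54e-10). EDIL3, a secreted integrin-binding matrix protein (chromosome 5, 83940554 to 84384793), rose from 8.73, 11 and 5.13 CPM to 200.1, 176 and 178 CPM (log2 fold change 4.46 ± 0.23, adjusted p = 9.38e-10). In neither gene did the groups come near each other.

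CDH6, a cadherin of the developing kidney tubule (chromosome 5, 31193750 to 31329146), was the most abundant of the 12 largest rises by CPM. It stood at 134, 176 and 96.6 CPM in short-term and 1701, 1742 and 1412 CPM in long-term libraries (log2 fold change 3.57 ± 0.22, adjusted p = 1.6e-08). AC113386.1, an antisense gene whose annotated exons overlap those of CDH6, rose alongside it from 2.31 to 31.6 CPM (log2 fold change 3.72 ± 0.22, adjusted p = 1.49e-09), and their reads cannot be told apart, since the strand setting of the counting was not given. For the same reason exonic reads are uncertain for 38 of the 91 genes named, whose exons overlap another gene, among them CCND1 (LTO1), RSAD2 and CMPK2 (each other), KCNJ15 (DSCR8), RFC4 (EIF4A2) and TGFB1 (HNRNPUL1). JAG1, a Notch ligand, was at 22.4, 29.7 and 28.5 CPM and then at 188, 218 and 210.1 CPM (log2 fold change 2.94 ± 0.23, adjusted p = 1.71e-07). ADGRL2, the adhesion receptor latrophilin 2, was at 19, 20.03 and 21.4 CPM and then at 186, 169 and 152 CPM (log2 fold change 3.07 ± 0.16, adjusted p = 3.91e-10). For both the groups lay far apart, and the means of short-term and long-term nontarget cells were 28.6 and 28.2 CPM for JAG1 and 16.9 and 12.4 CPM for ADGRL2. The rest of the 12 largest rises had mean changes from 3.33 to 48.6 CPM for EMILIN2, an elastin-associated glycoprotein, from 3.21 to 33.3 CPM for ADAM12, a metalloprotease-disintegrin, from 7.6 to 69.7 CPM for LIPG, the endothelial lipase, from 5.79 to 47.4 CPM for FHDC1, a formin, and from 2.37 to 21.5 CPM for AL139393.2. Their log2 fold changes lay between 3.07 and 3.92. CDH6 and EMILIN2 also rose in nontarget cells, with means of 67.7 and 244 CPM for CDH6 and 3.65 and 18.3 CPM for EMILIN2, and for EMILIN2 the interaction did not pass (adjusted p = 0.083). AC113386.1 rose there too, with means of 1.15 and 4.69 CPM, as did LIPG (nontarget log2 fold change 0.96). ADAM12 and FHDC1 fell in nontarget cells (log2 fold changes -1.54 and -2.24).

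The 12 largest falls by the same rule included the cell cycle gene CCND1, which encodes cyclin D1, the partner of CDK4 and CDK6 in G1 (chromosome 11, 69641087 to 69654474). CCND1 was at 171, 171 and 197 CPM in short-term and 3.24, 3.67 and 3.56 CPM in long-term knockdown libraries (log2 fold change -5.69 ± 0.14, adjusted p = 2.78e-14). The spread within each group was small beside the fall, and nontarget cells stood at means of 118 and 145 CPM before and after long culture. These are RNA values, and the study's blots showed raised CCND1 protein after long-term knockdown. CLSTN2, a calsyntenin of the cadherin superfamily (chromosome 3, 139935185 to 140577397), went from 54, 60.2 and 55.9 CPM to 0.231, 0.44 and 0.678 CPM (log2 fold change -7.01 ± 0.26, adjusted p = 1.36e-11). CAVIN2, a coat protein of caveolae, was at 16.9, 25.6 and 17.2 CPM in short-term libraries, 406 counts in all, and had 3 counts in the long-term ones, a ratio per total of 141 (exact 95% interval 48.0 to 688, counting error only). Nontarget means of CAVIN2 were 0.351 and 0.809 CPM, so that short-term knockdown cells stood highest of the 4 groups. RSAD2, the interferon-induced antiviral enzyme viperin, was at 26.8, 38 and 12.9 CPM and fell to 0.347, 0.293 and 0 CPM (log2 fold change -6.70 ± 0.69, adjusted p = 3.44e-06). For RSAD2 the difference from the change in nontarget cells did not pass the interaction test.

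FBLN2, a fibulin of the basement membrane, was at 14.9, 19 and 18.1 CPM and then at 0.231, 0.293 and 0.509 CPM (log2 fold change -5.64 ± 0.38, adjusted p = 9.12e-09). Cytoskeletal genes were among the falls too. CYFIP2, a subunit of the WAVE actin regulatory complex, fell from 29.7 to 0.799 CPM, and SCIN, an actin-severing protein, from 21 to 0.648 CPM. The other largest falls were NIPAL4, a magnesium transporter, from 20.9 to 0.393 CPM, FAM110B from 17.6 to 0.19 CPM, and VWA1, a matrix protein, from 15.7 to 0.421 CPM. For all 5 of these genes the ranges of the 2 groups did not overlap and log2 fold changes lay between -6.43 and -5.06. The interaction test was not passed by VWA1.

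Some genes were no longer detected at all. With at least 50 counts over the 3 short-term libraries and none over the 3 long-term libraries there were 11 genes, and no gene had the reverse pattern. The same rule found 4 genes lost and 1 gained in nontarget cells. KCNJ15, an inwardly rectifying potassium channel, was at 19.6, 17.1 and 17.3 CPM in short-term libraries and at 0 in each long-term one, which is at least 129-fold lower, taking 3 counts over the group as the floor. ACTC1, cardiac muscle actin, was at 11.4, 11.4 and 25.8 CPM and then 0, at least 109-fold lower. LBH, a transcriptional cofactor, was at 12.8, 11.6 and 13.6 CPM and then 0, at least 89.5-fold lower. SLC6A13, a GABA transporter, MAL, a membrane raft proteolipid, PID1, PLEKHG7 and TCIM had 68 to 76 counts in short-term libraries and were at least 23.7-fold to 26.4-fold lower. At this depth a gene at 0 may still be present below the floor.

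More matrix and adhesion genes fell than rose. Of 33 matrix glycoproteins and crosslinking enzymes tested 14 fell and 6 rose, against 15.2% and 11.5% of all genes, with a median log2 fold change of -0.44. FN1, fibronectin, was at 2707, 2537 and 2251 CPM in short-term and 313, 288 and 251 CPM in long-term libraries (log2 fold change -3.14 ± 0.17, adjusted p = 9.01e-10). THBS2, thrombospondin 2, was at 98.6, 72.8 and 119 CPM and then at 3.47, 3.23 and 4.07 CPM (log2 fold change -4.75 ± 0.21, adjusted p = 5.29e-11). BGN, the proteoglycan biglycan, fell from 35.9 to 1.29 CPM (log2 fold change -4.85 ± 0.27, adjusted p = 9.01e-10). Cadherins, protocadherins and calsyntenins moved both ways, with 10 of 21 lower and 6 higher. Among matrix genes EFEMP1, fibulin 3, rose from 63.2 to 241 CPM (log2 fold change 1.94 ± 0.17, adjusted p = 2.82e-07) and TGFBI, a TGF-beta induced matrix protein, from 1071 to 2128 CPM (log2 fold change 0.99 ± 0.13, adjusted p = 2.27e-05). Of 14 collagens outside the fibrillar class 9 fell and 1 rose (median -0.70), with COL14A1 going from 9.58 to 0.617 CPM (log2 fold change -4.04 ± 0.40, adjusted p = 8.46e-07). Of 25 integrins and laminins 8 fell and none rose, among them ITGB8, an integrin that activates latent TGF-beta, from 106 to 14.4 CPM. Metalloproteases and their inhibitors split, with 7 of 20 lower and 4 higher, and ADAMTS9, a proteoglycan-cleaving protease, rose from 13.3 to 41.9 CPM (log2 fold change 1.66 ± 0.17, adjusted p = 9.05e-07).

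Epithelial and tubule genes fell more often than genes at large. Of 22 epithelial genes 13 fell (59.1%) and 1 rose (median -0.96), and of 15 proximal tubule genes 9 fell (60%) and 1 rose (median -0.825), against 15.2% lower and 11.5% higher over all genes tested. CLDN1, a tight junction claudin, was at 226, 188 and 200.2 CPM and then at 35.9, 36.2 and 33.8 CPM (log2 fold change -2.53 ± 0.11, adjusted p = 6.13e-11). CLDN2, the claudin that makes proximal tubule junctions leaky to cations, was the epithelial gene that rose, from 11.1, 13.2 and 9.2 CPM to 62.1, 64.9 and 63.3 CPM (log2 fold change 2.50 ± 0.20, adjusted p = 8.09e-08). DPP4, a brush border peptidase, fell from 126 to 26 CPM (log2 fold change -2.28 ± 0.16, adjusted p = 1.21e-08) and SLC7A7, a basolateral amino acid exchanger subunit, from 17.9 to 4.93 CPM (log2 fold change -1.86 ± 0.21, adjusted p = 3.43e-06), while PDZK1, a brush border scaffold, rose from 33 to 56 CPM (log2 fold change 0.77 ± 0.14, adjusted p = 0.000466). Of 6 kidney injury genes 2 rose and 2 fell, and of 19 kidney developmental factors 5 rose (26.3%) and 3 fell (15.8%). SOX9, a factor of regenerating tubules and one of the injury genes, rose from 2.09 to 13.6 CPM (log2 fold change 2.67 ± 0.26, adjusted p = 7.32e-07). Of 16 mesenchymal and contractile genes 8 fell and 2 rose.

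Ligands and their receptors changed in both directions. Of 43 genes of the TGF-beta and BMP pathway 18 fell (41.9%) and 8 rose (18.6%), against 15.2% and 11.5% of all genes tested (median -0.295). The ligand TGFB1 rose from 95.7 to 251 CPM (log2 fold change 1.39 ± 0.21, adjusted p = 0.000137). The BMP antagonist GREM1 was at 719, 643 and 656 CPM and fell to 121, 101 and 119.9 CPM (log2 fold change -2.56 ± 0.10, adjusted p = 1.9e-11). FSTL1, a secreted modulator of BMP signalling, fell from 76.3 to 6.99 CPM (log2 fold change -3.44 ± 0.15, adjusted p = 6.13e-11). Of 10 EGF family ligands and receptors 6 fell (60%) and 3 rose (30%). TGFA, a ligand of EGFR, was at 35.3, 39.2 and 34.5 CPM and then at 5.2, 6.46 and 6.95 CPM (log2 fold change -2.56 ± 0.16, adjusted p = 2.6e-09), while EREG, epiregulin, another ligand of the family, was at 49.4, 33.8 and 66.5 CPM and then at 180.3, 182 and 170.1 CPM (log2 fold change 1.84 ± 0.19, adjusted p = 2.98e-06). Of 32 WNT pathway genes 9 fell (28.1%) and 4 rose (12.5%), the rises near the share of all genes.

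Of 34 interferon-stimulated genes 25 fell (73.5%) and 1 rose (2.94%), against 15.2% and 11.5% of all genes tested, with a median log2 fold change of -1.12. OAS3, a sensor of double-stranded RNA, was at 146, 130.0 and 131 CPM and then at 45.3, 43.6 and 46.8 CPM (log2 fold change -1.59 ± 0.16, adjusted p = 1.02e-06), and CMPK2, a mitochondrial nucleotide kinase, fell from 6.65 to 0.391 CPM (log2 fold change -4.10 ± 0.41, adjusted p = 9.13e-07). The list also fell in nontarget cells, where 19 members were lower and none higher (median -0.77), against 4.38% and 3.17% of all genes in that comparison. The difference between knockdown and nontarget passed the interaction test in 3 of the 34, against 13.4% of all genes tested.

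Of 16 genes that carry, load or cut peptides for MHC class I, 10 fell in knockdown cells (62.5%, against 15.2% of all genes tested), 6 did not pass the test and none rose (median -0.56). In nontarget cells 0 of 16 passed the adjusted p, near the 4.38% lower and 3.17% higher of all genes there. The interaction test was passed by 7 of the 16, against 13.4% of all genes tested. HLA-B, a class I heavy chain, was at 282, 344 and 256 CPM and then at 106, 118 and 150.3 CPM (log2 fold change -1.24 ± 0.15, adjusted p = 7.88e-06), although reads of HLA genes can be shared between near copies such as HLA-C. TAP1, a subunit of the peptide transporter, fell from 36.8 to 14.2 CPM (log2 fold change -1.37 ± 0.14, adjusted p = 1.59e-06), and PSMB9, a subunit of the immunoproteasome, from 18.4 to 5.89 CPM (log2 fold change -1.67 ± 0.19, adjusted p = 3.61e-06). Of 21 cytokines, chemokines and NF-kB genes 9 fell (42.9%), 2 rose (9.52%, near the 11.5% of all genes) and 10 did not pass. IL18, an inflammasome cytokine, went from 42 to 8.64 CPM (log2 fold change -2.28 ± 0.15, adjusted p = 6.03e-09), and CXCL5, a neutrophil chemokine, rose from 36.6 to 128 CPM (log2 fold change 1.81 ± 0.14, adjusted p = 5.67e-08).

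Of 27 targets of TFEB and TFE3, the factors that FLCN restrains, 13 fell (48.1%), 1 rose (3.70%) and 13 did not pass the test (median -0.32), against 15.2% lower and 11.5% higher over all genes tested. Of 59 lysosomal enzymes and V-ATPase subunits 24 fell (40.7%) and 4 rose (6.78%, median -0.22). RRAGD, the Rag GTPase RagD, was at 31.4, 30.0 and 21.8 CPM in short-term and 4.04, 5.43 and 6.61 CPM in long-term knockdown libraries (log2 fold change -2.40 ± 0.19, adjusted p = 8.09e-08). FNIP2, the FLCN partner, was at 44.8, 54.5 and 41.9 CPM and then at 11.9, 12 and 9.67 CPM (log2 fold change -2.06 ± 0.15, adjusted p = 1.84e-08). GPNMB, a lysosomal glycoprotein used as a marker of TFE3 activity, was at 53.1, 69 and 32 CPM and then at 10.8, 12.5 and 9.33 CPM (log2 fold change -2.24 ± 0.22, adjusted p = 1.05e-06). For all 3 genes the groups did not overlap, and long-term knockdown cells lay below long-term nontarget cells for RRAGD and FNIP2 (8.49 and 24.7 CPM) and above them for GPNMB (5.55 CPM), a comparison of means that was not tested. Among lysosomal hydrolases CTSH fell from 143 to 38.7 CPM (log2 fold change -1.89 ± 0.13, adjusted p = 7.67e-09) and CTSS from 33.1 to 9.12 CPM (log2 fold change -1.86 ± 0.19, adjusted p = 1.02e-06), both cathepsins, while GAA, acid alpha-glucosidase, rose from 21.9 to 57.8 CPM (log2 fold change 1.40 ± 0.13, adjusted p = 2.91e-07). Of 28 mTOR pathway genes 5 fell (17.9%) and 3 rose (10.7%), near the shares of all genes, and 3 fell without replicate 1 of either knockdown group, long-term replicate 2 or short-term replicate 3. The inhibitor DEPTOR was the member that fell 2-fold or more, from 16.5 to 3.19 CPM (log2 fold change -2.33 ± 0.19, adjusted p = 8.76e-08). Of 34 autophagy genes 7 fell and 3 rose, near the background shares, and 12 fell with the replicate number as a block in the 2 knockdown groups.

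DNA replication genes rose more often than genes at large, by small amounts. Of 46 DNA replication genes 15 rose and 1 fell (median 0.21), of 42 DNA damage response genes 7 rose and none fell, and of 38 mitosis genes 4 rose and none fell, near the background of 11.5%. RPA1, a subunit of the single-strand binding protein, was at 242, 243 and 226 CPM and then at 405, 375 and 368 CPM (log2 fold change 0.69 ± 0.09, adjusted p = 1.27e-05). RFC4, a clamp loader subunit, rose from 60.9 to 103 CPM (log2 fold change 0.75 ± 0.14, adjusted p = 0.000474) and TK1, thymidine kinase, from 400.2 to 631 CPM (log2 fold change 0.66 ± 0.14, adjusted p = 0.00183). The count for DNA replication was 8 without long-term knockdown replicate 2 and 24 with the replicate number as a block in the 2 knockdown groups. For DNA damage response genes it was 4 without long-term knockdown replicate 1 or short-term knockdown replicate 3, 11 without long-term knockdown replicate 3, and 14 with that block. The 11.5% over all genes is from the fit without a block and with every library.

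Of 27 regulators of the G1 to S transition 5 fell (18.5%) and 3 rose (11.1%), near the shares of all genes tested (15.2% and 11.5%). CDKN1A, the CDK inhibitor p21, was at 71.6, 77.9 and 92.5 CPM and fell to 29.4, 27.1 and 20.5 CPM (log2 fold change -1.64 ± 0.19, adjusted p = 6.97e-06). This too is RNA, and the study's blots of spheroids showed more CDKN1A protein after long-term than after short-term knockdown. CDKN2C, the inhibitor p18 of CDK4 and CDK6, rose from 39.9, 37.4 and 41.2 CPM to 81.9, 69.8 and 89.2 CPM (log2 fold change 1.02 ± 0.15, adjusted p = 4.89e-05). Outside that list HMGA2, a chromatin protein of growing embryonic cells, fell from 431 to 70.9 CPM (log2 fold change -2.60 ± 0.14, adjusted p = 4.66e-10). HRK, a death-promoting BCL2 family member, fell from 7.24 to 0.409 CPM (log2 fold change -4.21 ± 0.43, adjusted p = 1.15e-06).

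Ribosomal protein and respiratory chain genes moved upwards more often than downwards. Of 82 cytosolic ribosomal protein genes 20 rose (24.4%) and none fell (median 0.22), and of 79 nuclear genes for respiratory chain subunits 21 rose (26.6%) and 2 fell (median 0.215), against 11.5% higher and 15.2% lower over all genes tested. RPL38 rose from 314 to 527 CPM (log2 fold change 0.75 ± 0.09, adjusted p = 1.04e-05). ATP5MG, a subunit of ATP synthase, rose from 113 to 196 CPM (log2 fold change 0.80 ± 0.12, adjusted p = 0.000123) and SDHA, a subunit of complex II, from 244 to 365 CPM (log2 fold change 0.58 ± 0.09, adjusted p = 0.000112). RPL38, ATP5MG and SDHA have annotated pseudogenes with which their reads could be shared. The ribosomal count moved with the fit. It was 40 with the replicate number as a block over all 12 libraries, 57 with that block in the 2 knockdown groups alone, 11 in the 2 groups without a block, and 6, 13 and 12 without long-term replicate 1, short-term replicate 2 and short-term replicate 3 of the knockdown groups. The respiratory count was 45 with the block in the 2 knockdown groups. The shares of all genes under these other fits are not given here, so these counts have no matching background.

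Of 25 sterol synthesis genes 9 rose (36%) and 1 fell (4%), against 11.5% and 15.2% of all genes tested. SREBF1, the SREBP-1 transcription factor, was at 29.7, 37.1 and 38.4 CPM and then at 80.9, 81 and 116 CPM (log2 fold change 1.40 ± 0.16, adjusted p = 3.63e-06). The sterol count was 4 without short-term knockdown replicate 1, 3 without long-term knockdown replicate 1 and 5 in the 2 groups alone. The share of all genes under those fits is not given here. Of 21 fatty acid synthesis genes 6 rose (28.6%) and 7 fell (33.3%), and 4 fell without short-term knockdown replicate 1. SCD, the stearoyl-CoA desaturase, rose from 1052 to 2150 CPM (log2 fold change 1.03 ± 0.13, adjusted p = 9.43e-06), while ACSL1, an acyl-CoA synthetase, was at 37.3, 30.0 and 38.9 CPM and fell to 4.97, 4.99 and 3.22 CPM (log2 fold change -2.98 ± 0.18, adjusted p = 2.05e-09). Of 29 amino acid transporters 11 fell (37.9%) and 2 rose (6.90%), with SLC3A2, the heavy chain of several exchangers, going from 208 to 117 CPM (log2 fold change -0.83 ± 0.13, adjusted p = 0.000175).

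Among 27 HOX genes, which set positional identity, 8 rose (29.6%) and 2 fell (7.41%), against 11.5% and 15.2% of all genes tested, although the median was -0.01. HOXA5 was at 22.3, 25.7 and 30.6 CPM and then at 74.9, 70.0 and 87.2 CPM (log2 fold change 1.57 ± 0.16, adjusted p = 8.46e-07), and HOXA7 rose from 27.5 to 40.4 CPM (log2 fold change 0.56 ± 0.14, adjusted p = 0.00557). Of the 8 that rose, all were of the HOXA cluster on chromosome 7. The count of rises was 5 without short-term knockdown replicate 1 or 2 or long-term knockdown replicate 3. Of 406 ZNF zinc finger genes, a family of mostly transcriptional repressors, 34 fell (8.37%) and 17 rose (4.19%), below both background shares. The count of rises was 28 with the replicate number as a block and 30 with that block in the 2 knockdown groups alone, 10 without short-term knockdown replicate 1 and 9 without long-term knockdown replicate 2.

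Long culture changed fewer genes in nontarget cells. There 161 genes were called higher (1.15% of genes tested) and 239 lower (1.71%), and 443 and 611 passed the adjusted p alone. The 400 calls made 1.48 falls for each rise. The 2 comparisons share no library. Of the genes called, 156 were called in both in the same direction, 12.7% of the knockdown calls and 39% of the nontarget calls, and 53 were called in opposite directions, 4.33% and 13.25%. Across the 13959 genes, which are not independent replicates, the log2 fold changes had a Pearson correlation of 0.21 and a Spearman correlation of 0.16. The change over culture itself differed by 2-fold or more at an adjusted p below 0.05 for the interaction in 1040 genes (7.45% of genes tested), 275 of them higher and 765 lower in knockdown cells. Of the 1225 knockdown calls 762 (62.2%) passed the interaction test by the adjusted p.

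Genes called in the same direction in knockdown and nontarget cells include KRT19, a simple epithelial keratin, at 33.7, 31.3 and 32.9 CPM and then 3.24, 3.23 and 6.11 CPM in knockdown cells and at means of 32.8 and 5.07 CPM in nontarget cells. OXTR, the oxytocin receptor, fell from 14.2 to 1.04 CPM with nontarget means of 11.4 and 1.73 CPM, CLIP3 from 8.27 to 0.93 CPM with 11.3 and 1.38 CPM, and GPRC5B rose from 9.96 to 27.4 CPM with 8.34 and 27.2 CPM. For these 4 genes the interaction did not pass the test (adjusted p = 0.627, 0.0716, 0.911 and 0.496). GJA1, the gap junction protein connexin 43, fell in both but further in knockdown cells, from 29.4 to 0.972 CPM against 55.3 and 12.8 CPM in nontarget cells (interaction log2 difference -2.77 ± 0.31, adjusted p = 9.62e-06).

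Genes that went opposite ways include CLSTN2, which rose in nontarget cells from 47.4 to 249 CPM while it nearly vanished in knockdown cells (interaction log2 difference -9.40 ± 0.29, adjusted p = 7.33e-13). NPPB, the natriuretic peptide precursor, was at 12.8, 9.8 and 21.4 CPM in short-term knockdown libraries and had 1 count in the long-term ones, a ratio per total of 302 (exact 95% interval 53.7 to 11960, counting error only), while nontarget means went from 3.27 to 11.8 CPM. SORL1, a sorting receptor, had 79 counts and then 3 in knockdown cells, a ratio of 27.5 (9.07 to 136), with nontarget means of 2.72 and 13.4 CPM. TCIM, at 0 in long-term knockdown cells, rose to 31.1 CPM in long-term nontarget cells, and HRK from 0.0979 to 1.58 CPM.

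**Figure D2:**
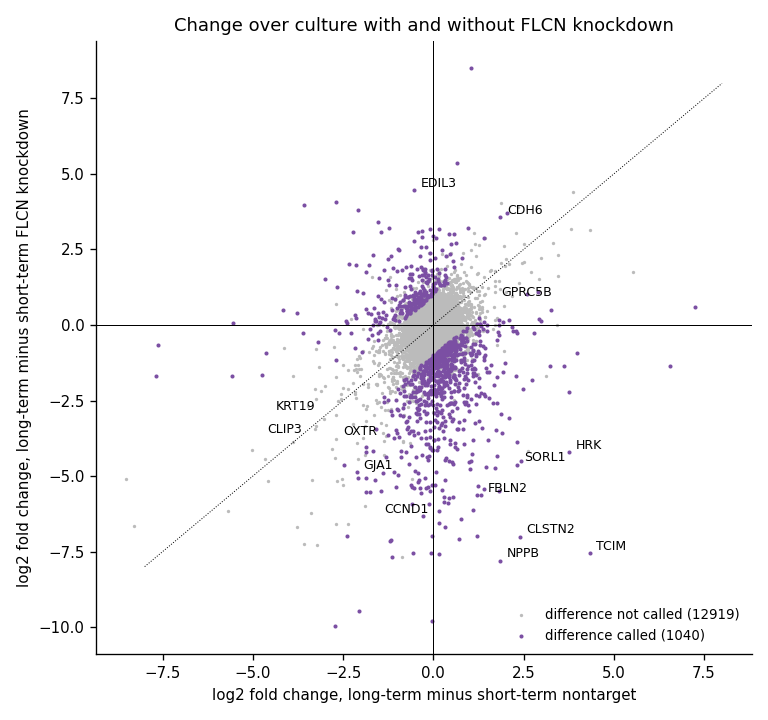
Each point is a gene tested, with its log2 fold change of long-term against short-term nontarget on the x axis and of long-term against short-term FLCN knockdown on the y axis. Purple marks the 1040 genes whose change differed by 2-fold or more at an adjusted p below 0.05, and the dotted line marks equal change. CLSTN2, NPPB and TCIM lie at the lower right, and KRT19 and CLIP3 lie near the line.

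Changes were not spread evenly over the chromosomes. On chromosome 14, 230 of 473 genes passed the test as lower in long-term knockdown cells (48.6%) and 11 as higher, with a median log2 fold change of -0.46. Nontarget cells had a median of -0.34 there. On chromosome 17, where FLCN lies, 234 of 833 genes were higher (28.1%) and 55 lower, with a median of 0.21 in knockdown and 0.06 in nontarget cells. The next nuclear chromosome by distance from 0 in knockdown cells was chromosome 10, at -0.15. In nontarget cells it was chromosome 7, at -0.22 against 0.09 in knockdown cells, and HOXA5 and HOXA7 lie there. Neighbouring genes showed this in running medians over 41 tested genes. The highest such median was 0.67, on chromosome 17, where 28 of 41 genes passed as higher and none as lower, and the nontarget median was 0.11. The lowest was -0.85, at the end of chromosome 4 between MFAP3L and TRIML2 (169986597 to 188109603), where 30 of 41 genes passed as lower and none as higher, and the nontarget median was 0.10. Copy number was not measured, and its part in these values was not tested. Of the genes named above, ACSL1 lies in the chromosome 4 stretch, RPL38, SOX9, RPA1, TK1, SREBF1, GAA and KRT19 lie on chromosome 17, and SLC7A7 lies on chromosome 14.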

How the data were processed

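RNA from 12 HK2 cultures in 4 groups of 3 had been sequenced on an Illumina MiSeq from TruSeq RNA v2 libraries. The authors trimmed reads with fastp, mapped them to GRCh38 with STAR in 2-pass mode and made deposited counts of reads per gene with featureCounts. Versions, annotation release and strand setting were not given in the sources used here. A second deposited table holds each count divided by the authors' DESeq2 size factor and rounded, treated as a score and used only to check the counts. Gene positions came from GENCODE 29, with which 55661 of 58288 gene identifiers matched in version.

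Counts were fitted with edgeR 4.0.16 (limma 3.58.1, R 4.3.3): filterByExpr kept 13959 genes holding 99.8% of counts, followed by TMM factors, 1 model with a term per group over all 12 libraries, the quasi-likelihood test, two-sided, and Benjamini-Hochberg adjustment over all genes tested. Log2 fold changes used a prior count of 0.125, and ± gives their standard error. CPM values are per 1e6 counts after TMM scaling. DESeq2 1.42.0, other scaling, other filters, a replicate block and leaving out libraries were alternatives. The script was tested on simulated data.

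Replicate numbers paired the knockdown samples: deviations from the group means correlated at 0.489, 0.533 and 0.689 for the same number, the highest for each sample, as a check on the data and not from the labels. In nontarget cells they were -0.104, 0.22 and 0.0129.

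Named genes were the 12 largest rises and falls among called genes without overlap and with a mean of at least 50 counts, up to 4 per list in each direction by adjusted p, the 8 silent genes with the most counts, 6 opposite and 6 shared genes, and FLCN. ERG was named as a marker, and the text gives a part of the genes this rule allows. Some genes are not reported here. Members and lists were chosen with earlier results of these data known. Lists are described by counts and medians without a set test.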

Additional observations from a re-analysis of the deposited data

Results flagged for a closer look

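The change over culture was compared between knockdown and nontarget cells for each gene named, by the interaction term of the edgeR quasi-likelihood fit over all 12 libraries. It passed at an adjusted p below 0.05 in 78 of them (highest adjusted p 0.0339), with the change lower in knockdown cells for 48 and higher for 30. It did not pass for FLCN, CLIP3, CMPK2, EMILIN2, GPRC5B, KRT19, MAL, OXTR, PDZK1, RSAD2, SDHA, TK1 or VWA1. Values below are log2 fold changes over culture in knockdown cells minus those in nontarget cells. Groups of 3 libraries were too small for a test of single values that lie far from their group. The nontarget change passed the test in the opposite direction for 19 of the 78 genes, in the same direction for 10, and did not pass for 49. Genes were named in part for their change in knockdown cells, so their number is not independent evidence of a difference.

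Genes that fell in knockdown cells and rose in nontarget cells gave -11.88 for TCIM, -9.65 for NPPB, -9.40 for CLSTN2, -7.98 for HRK, -7.19 for FAM110B, -6.95 for FBLN2, -6.95 for SORL1, -5.78 for THBS2, -4.53 for ADM, -3.50 for DEPTOR and -1.44 for SLC3A2. Those that rose in knockdown cells and fell in nontarget cells gave 5.31 for FHDC1, 4.95 for ADAM12, 3.18 for CXCL5, 2.70 for EREG, 2.70 for EFEMP1, 2.19 for HOXA5, 1.57 for HOXA7 and 1.11 for MT-CO2. Genes that moved the same way in both, but by unequal amounts, gave -7.40 for LBH, -7.25 for KCNJ15, -2.77 for GJA1, -1.86 for FSTL1, -1.80 for HMGA2, -1.20 for GREM1 and -0.73 for OAS3 among the falls and 2.24 for LIPG, 1.72 for CDH6 and 1.69 for AC113386.1 among the rises.

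The other 49 genes passed the test in knockdown cells and not in nontarget cells. Among those that fell, the difference for genes of matrix and adhesion was -4.64 for COL14A1, -4.35 for BGN, -3.17 for FN1, -2.97 for ITGB8 and -2.27 for CLDN1. For genes of the cytoskeleton, caveolae and cell cycle it was -9.77 for ACTC1, -8.20 for CAVIN2, -4.84 for SCIN, -4.73 for CYFIP2, -5.99 for CCND1 and -1.54 for CDKN1A. For transporters, peptidases and lipid genes it was -6.54 for SLC6A13, -6.17 for NIPAL4, -3.08 for ACSL1, -2.32 for DPP4 and -2.14 for SLC7A7. For genes of immunity and secreted signals it was -2.12 for IL18, -2.09 for C3, -2.37 for TGFA, -1.40 for PSMB9, -1.14 for HLA-B and -1.11 for TAP1. For lysosomal genes and partners of FLCN it was -2.22 for FNIP2, -2.10 for GPNMB, -1.998 for CTSS, -1.81 for RRAGD and -1.74 for CTSH. The remaining falls gave -7.75 for PID1, -6.998 for PLEKHG7 and -6.31 for ERG. For genes at 0 counts in long-term knockdown cells (TCIM, ACTC1, LBH, KCNJ15, PID1, PLEKHG7 and SLC6A13) these values depend on the prior count.

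Among those that rose, the difference for genes of matrix, adhesion and cell surface was 4.99 for EDIL3, 4.69 for EPHA3, 3.51 for ADGRL2, 2.94 for JAG1, 2.26 for CLDN2, 1.70 for ADAMTS9, 1.23 for TGFB1 and 1.16 for TGFBI. For genes of replication, the cell cycle, translation and respiration it was 0.59 for RPA1, 0.68 for RFC4, 0.87 for CDKN2C, 0.74 for RPL38 and 0.82 for ATP5MG. For genes of lipids and the lysosome it was 1.57 for GAA, 0.97 for SREBF1 and 0.81 for SCD. The rest were 7.45 for MLANA, 3.02 for AL139393.2 and 2.18 for SOX9.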

How the results depend on the processing

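Of the 91 genes named, 90 kept their direction and their side of the test in long-term against short-term knockdown cells under every alternative in which they were tested, and none reversed. The exception was MT-CO2, whose values are given under the other observations. Scaling by RLE factors in place of TMM gave 1227 calls, DESeq2 gave 1284, no filter on low counts 1483, the 2 groups alone 1054 and a prior count of 2 gave 1156, against 1225. Of the 1225, DESeq2 shared 1141 (93.1%). Leaving out each library in turn gave 1163 to 1349 calls in knockdown cells (283 to 333 higher and 877 to 1041 lower), 303 to 395 in nontarget cells and 923 to 1218 for the interaction.

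A filter at a mean of 10 CPM, which leaves fewer genes to test, gave 436 calls in knockdown cells (92 higher and 344 lower), 112 in nontarget cells and 493 for the interaction. Under that filter 8 of 14 epithelial, 4 of 9 proximal tubule, 5 of 12 mesenchymal, 5 of 22 amino acid transporter and 20 of 160 ZNF genes fell, and 5 of 8 HOX genes and 3 of 10 kidney developmental factors rose. Genes with no counts in 1 knockdown group numbered 21 when at least 30 counts were asked of the other group and 3 when 100 were. With a replicate block the knockdown comparison gave 1276 calls (1221 of them shared with the 1225), the nontarget comparison 449 and the interaction 1141, and the block within the 2 knockdown groups, chosen after seeing the data as were the prior count of 2 and the fits without replicate 3, gave 1133. It changed no call of a named gene, and the counts it moved by over 1.5 times stand beside the results for the lists described, and for axon guidance genes the number lower went from 7 to 11 with the block within the 2 knockdown groups. The shares of all genes printed beside the lists are from the fit of all 12 libraries without a block. List counts under the alternatives, the filter at 10 CPM included, have no matching share here.

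Depth limits genes at the floor. A group of 3 libraries with no counts leaves up to 3 counts open, and changes of genes with few counts carry wide errors. With 3 libraries a group and no record of clones, a difference between clones and one from passage cannot be told apart.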

Other observations

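Genes of low oxygen and of the mitochondrial genome were described apart from the comparisons above. Of 19 HIF targets tested, 9 fell (47.4%) and 2 rose (10.5%) in long-term knockdown cells (median log2 fold change -0.49), against 15.2% and 11.5% of all genes tested. In nontarget cells 2 were lower and 2 higher (median 0.22), against 4.38% and 3.17% of all genes in that comparison. ADM, the vasodilator peptide adrenomedullin, was at 14, 14.8 and 21.1 CPM in short-term and 1.04, 1.03 and 1.19 CPM in long-term knockdown libraries (log2 fold change -3.91 ± 0.26, adjusted p = 6.09e-09), while nontarget means were 10.5 and 16.1 CPM. Of 10 complement genes 3 rose (30%) and 2 fell (20%), among them C3, the central component, from 49.3 to 8.91 CPM. Of 17 senescence and telomere genes 8 fell (47.1%) and 1 rose (5.88%, median -0.17).

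Transcripts of the mitochondrial genome moved differently in the nontarget cells. Of 13 protein-coding members 2 fell (15.4%) and 1 rose (7.69%) in knockdown cells, near the 15.2% and below the 11.5% of all genes tested. In nontarget cells 8 of the 13 fell, against 4.38% of all genes (median -0.61), and 6 passed the interaction test, against 13.4%. MT-CO2, a subunit of cytochrome oxidase, was the member that rose, at 5481, 4204 and 4055 CPM and then 7830, 5967 and 5287 CPM with overlapping groups (log2 fold change 0.47 ± 0.15, adjusted p = 0.0245). Each long-term library was higher than the short-term library of the same number, and the call held with the replicate number as a block. Without a block it no longer passed with the 2 groups alone (adjusted p = 0.0759) or without long-term knockdown replicate 1, short-term knockdown replicate 2 or short-term knockdown replicate 3 (adjusted p = 0.171, 0.0874 and 0.0806). Reads of nuclear copies of mitochondrial DNA could be counted with these genes.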
